A study of Mus musculus with 18 samples.

Results

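The Dlk1-Dio3 imprinted region lies on mouse chromosome 12 and was followed here through 6 genes, Meg3, Rian, Mirg, Dlk1, Rtl1 and Dio3. They were taken by symbol and hold 12 of the 29851 transcript rows, or 6 of the 23421 gene symbols, in the deposited expression table. The region was selected on the FPKM values of these same libraries, those of the Eed comparisons among them, so the values below are a description. On the mm9 genome build the region ran from the first base of Dlk1 at 110691033 to the last base of Dio3 at 111519307.

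Genes of this region are expressed from 1 parental copy. The maternal copy makes the non-coding RNAs: Meg3 (also called Gtl2), Rian, which hosts C/D-box small nucleolar RNAs, and Mirg, which hosts many microRNAs. The paternal copy makes the coding genes: Dlk1, a membrane protein of the Delta/Notch-like family found on many progenitor cells, Rtl1, a retrotransposon-derived gene needed in the placenta, and Dio3, the deiodinase that inactivates thyroid hormone. Which copy is active is set by DNA methylation at an element upstream of Meg3, and on the maternal copy Meg3 transcription goes with repression of the coding genes. The libraries were not split by allele, so maternal and paternal below name the copy each gene is known to use.

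RNA was sequenced from 6 groups with 1 library each, all of 129/Ola background. E36 embryonic stem (ES) cells, labelled EED knock-out or wild type, were sampled undifferentiated, in 15% serum with leukemia inhibitory factor. Embryoid bodies (EBs), aggregates that differentiate once that factor is withdrawn, were made from the same knock-out and wild-type labels. They hung in drops for 48 hours, received 0.5 µM all-trans-retinoic acid between days 2 and 5, and were kept to day 9. E14 ES cells, wild type by label, were transduced with a lentiviral (pLKO.1) hairpin against Setd2, the enzyme that trimethylates lysine 36 of histone H3, or with a scrambled hairpin (shCtrl), selected with puromycin and harvested on day 4. Eed is the scaffold of Polycomb repressive complex 2 (PRC2), which methylates lysine 27 of histone H3. The labels give neither the Eed allele nor whether a line is 1 clone. The series has 18 samples in all, and its 12 ChIP-seq samples were not analysed here.

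Levels are FPKM, fragment counts scaled by transcript length and by the size of the library. The sources used here do not say how that size was set. Differences are of log2(FPKM + 1), the first library named minus the second, which understates changes of weak genes. With 1 library a group there is no replicate check and no test, so no order of levels could be set against a replicate spread. A size rule of at least 1 on that scale set which genes are called higher or lower. Genes entered with 1 FPKM or more in any of the 4 E36 libraries. For comparisons with E14 cells, the 2 libraries concerned were used for that filter.

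Several facts of the libraries bear on all comparisons. Relative depth, estimated from low values, was lowest at 0.799 in EB Eed KO and highest at 1.18 in ES Eed KO and shCtrl, with ES wild type at 1, and 1 fragment was worth about 0.022 to 0.032 FPKM over 1 kb. Eed mRNA did not check its label: it had 77.8 FPKM in ES Eed KO against 72.3 in ES wild type, and 21.8 in EB Eed KO against 25.04 in EB wild type. A transcript deleted in part can keep its reads, and the directions below rest on the labels. Setd2 had 2.59 FPKM in shSetd2 and 16.8 in shCtrl. The EB Eed KO library also stood apart at the main Trp53 transcript (4.8e-06 against 61.7 FPKM in EB wild type) and at the Y-linked Eif2s3y (0.0628 against 25.7). The Trp53 value is that of 1 transcript row, and a sum over transcripts is not given here. It is therefore not read as the level of the gene. On chromosome 12 without the 6 genes, the median difference less that of all genes at 5 FPKM or more was -0.03 in ES cells (324 genes) and 0.03 in EBs (369 genes). All 5 pluripotency markers (Pou5f1, Nanog, Sox2, Zfp42 and Tdgf1) were at 146 FPKM or more in every ES library, and between 0.936 and 7.14 FPKM in EB Eed KO against 11.0 to 52.6 in EB wild type.

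Windows around the transcription starts are shown because the 3 maternal RNAs were lower in both libraries labelled Eed KO while Dlk1 and Dio3 were not. They run from 250 bases before to 50 bases after the start, on the plus strand of GRCm38.p6, and come from RefSeq. Capitals mark CG dinucleotides, the sites of DNA methylation. The windows are chr12:109540746-109541045 for Meg3, chr12:109603695-109603994 for Rian, chr12:109452573-109452872 for Dlk1 and chr12:110278980-110279279 for Dio3.
Meg3: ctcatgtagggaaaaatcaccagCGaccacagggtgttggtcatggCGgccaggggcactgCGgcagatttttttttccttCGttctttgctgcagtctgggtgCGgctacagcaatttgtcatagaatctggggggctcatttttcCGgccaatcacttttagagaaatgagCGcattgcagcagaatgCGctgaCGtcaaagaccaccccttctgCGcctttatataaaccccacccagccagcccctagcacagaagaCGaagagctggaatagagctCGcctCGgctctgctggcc
Rian: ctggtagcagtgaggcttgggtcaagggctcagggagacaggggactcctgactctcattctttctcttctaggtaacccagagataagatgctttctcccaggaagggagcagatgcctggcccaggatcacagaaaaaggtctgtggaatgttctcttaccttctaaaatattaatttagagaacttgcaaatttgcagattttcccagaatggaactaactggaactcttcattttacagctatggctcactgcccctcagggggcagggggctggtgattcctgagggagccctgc
Dlk1: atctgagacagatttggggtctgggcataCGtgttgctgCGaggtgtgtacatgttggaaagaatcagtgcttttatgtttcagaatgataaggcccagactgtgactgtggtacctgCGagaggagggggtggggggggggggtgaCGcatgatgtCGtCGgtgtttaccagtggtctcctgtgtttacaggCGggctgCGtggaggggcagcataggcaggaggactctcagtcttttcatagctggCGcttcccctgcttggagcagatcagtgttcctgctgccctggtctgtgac
Dio3: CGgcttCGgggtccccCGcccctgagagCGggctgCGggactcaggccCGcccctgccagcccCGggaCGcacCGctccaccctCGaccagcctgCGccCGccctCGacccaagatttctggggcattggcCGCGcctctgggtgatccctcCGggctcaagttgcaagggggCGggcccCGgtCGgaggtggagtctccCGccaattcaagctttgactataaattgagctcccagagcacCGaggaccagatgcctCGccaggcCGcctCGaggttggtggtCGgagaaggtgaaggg

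The Meg3 window held 13 CG dinucleotides, the Dlk1 window 9 and the Dio3 window 25, against a median of 7 over 32851 windows of that length. The Rian window held 0, and the Mirg window (chr12:109734731-109735030) held 10. Mature sequences of Mir668 and Mir485 lie inside the Mirg window, so its CG count is partly that of microRNA genes. All starts are those RefSeq gives and were not checked here. A second Meg3 start (chr12:109545148-109545447) had 1. Among all windows, 18.4% had at least as many CG as Dio3 and 37.9% as many as Meg3. A set of 3 motifs was searched on both strands. The palindromic cAMP response element TGACGTCA was in the first Meg3 window and in no other window of these genes, and 1.79% of all windows held it. TATAAA was in the Meg3 and Dio3 windows (13.6% of all), and TGCCGC, the core bound by Zfp57, was in the first Meg3 window (11.6% of all). A match is a run of letters and says nothing of binding.

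In undifferentiated cells the 3 maternal RNAs were all lower in the library labelled ES Eed KO, Dio3 was higher, and Dlk1 was at the same low level in both libraries. Rtl1 was weak in both and lower in ES Eed KO, within the size rule. Of the 6 genes, 3 were lower and 1 higher by the size rule, where 5.84% of 14772 expressed genes passed it, 3.01% lower and 2.82% higher. These genes were picked with this contrast in view, so nothing is read from their count. Their median difference was -1.95, and that of all genes was -0.03.

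Meg3 (110779206 to 110809939), followed through its main transcript NR_027652, had 0.447 FPKM in ES Eed KO against 87.2 in ES wild type. Rian (110842155 to 110899921) had 0.351 FPKM in ES Eed KO against 96.2 in ES wild type. Mirg (110973191 to 110987667) had 0.102 FPKM in ES Eed KO against 9.90 in ES wild type. The 3 differences were -5.93, -6.17 and -3.31, and wild-type levels were 195-fold, 274-fold and 97.0-fold those of ES Eed KO. Counted from the lowest difference of all genes, Rian ranked 19, Meg3 22 and Mirg 61. Both E14 libraries lay with ES wild type: Meg3 had 82.0 FPKM in shSetd2 and 64.9 in shCtrl, Rian 83.5 and 58.4, and Mirg 11.2 and 9.15. With shCtrl in place of ES wild type as the control, the differences were -5.51 for Meg3, -5.46 for Rian and -3.20 for Mirg.

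**Figure D1:**
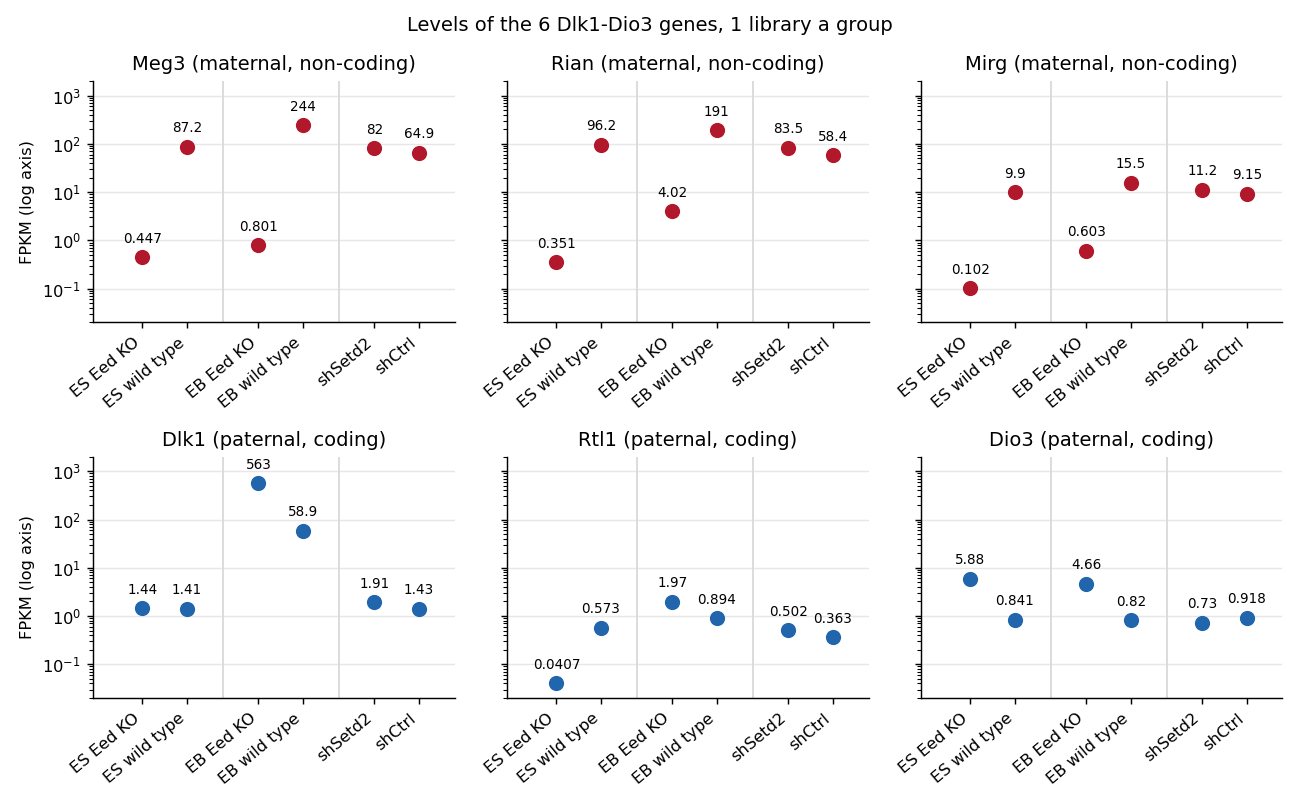
FPKM of the main transcript of each gene (vertical log axis) in the 6 libraries, with each point 1 library and its value printed above it. Meg3, Rian and Mirg are under 5 FPKM in both libraries labelled Eed KO and at 9.15 or more in the other 4 libraries, Dlk1 is at 58.9 or more in both EB libraries only, and Dio3 is above 4 only in the libraries labelled Eed KO.

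Dlk1 (110691033 to 110701546) had 1.44 FPKM in ES Eed KO and 1.41 in ES wild type, a difference of 0.01. It had 1.91 in shSetd2 and 1.43 in shCtrl, so all 4 ES libraries lay close together. Dio3 (111517440 to 111519307) had 5.88 FPKM in ES Eed KO and 0.841 in ES wild type, a difference of 1.90 and a ratio of 6.99. It ranked 67 from the highest difference of all genes. If the row, which spans 1868 bases, were 1 exon, its FPKM would stand for about 500 and 61 fragments. With a pseudocount of 5 its difference was 0.90, under the size rule. Dio3os, the non-coding RNA upstream of Dio3, had 0.347 FPKM in ES Eed KO and was listed at 0 in ES wild type.

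Rtl1 (110828379 to 110833613) had 0.0407 FPKM in ES Eed KO and 0.573 in ES wild type, a difference of -0.60 and, with a pseudocount of 0.1, -2.26. The table gives a non-coding row, 6430411K18Rik, at the same span, which had 0.0780 FPKM in ES Eed KO and 2.27 in ES wild type. Rtl1 has a maternally expressed antisense transcript, and the kit does not mark strand, so reads of the sense and the antisense RNA cannot be told apart. All of the Rtl1 levels in ES libraries were under 1 FPKM, between 0.0407 and 0.573.

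In EBs the maternal RNAs were also lower in the library labelled Eed KO, while Dlk1 and Dio3 were higher. The EBs came from the same E36 labels as the ES cells, so the ES and EB comparisons are not taken as independent. Of the 6 genes, 3 were lower and 2 higher by the size rule, where 17.5% of all genes passed it, 9.82% lower and 7.68% higher. Nothing is read from that count either, since the same contrast chose them. The members' median was -1.36 and that of all genes -0.14.

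Meg3 had 0.801 FPKM in EB Eed KO and 244 in EB wild type, a difference of -7.09 that ranked 15 from the lowest. Rian had 4.02 FPKM in EB Eed KO and 191 in EB wild type, a difference of -5.25. Mirg had 0.603 FPKM in EB Eed KO and 15.5 in EB wild type, a difference of -3.37. Wild-type levels were 305-fold those of EB Eed KO for Meg3, 47.4-fold for Rian and 25.8-fold for Mirg. The 3 RNAs thus lay in a different proportion in that library: Rian was 5.02 times Meg3 in EB Eed KO and 0.780 times Meg3 in EB wild type, and lay between 0.785 and 1.10 times Meg3 in the 4 ES libraries. Mirg was 0.753 times Meg3 in EB Eed KO and between 0.0636 and 0.228 times elsewhere. These ratios set levels of different rows side by side within 1 library, on the FPKM scale.

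Dlk1 had 563 FPKM in EB Eed KO and 58.9 in EB wild type, a difference of 3.24 and a ratio of 9.56. It was the gene with rank 121 of 23421 by level in EB Eed KO and rank 1136 in EB wild type. Dio3 had 4.66 FPKM in EB Eed KO and 0.820 in EB wild type, a difference of 1.64 and a ratio of 5.68, or 0.73 with a pseudocount of 5. Its levels in the EB and the ES library of each label were close. Dio3os had 3.20 FPKM in EB Eed KO and 0.147 in EB wild type. Rtl1 had 1.97 FPKM in EB Eed KO and 0.894 in EB wild type, a difference of 0.65. The 6430411K18Rik row moved with it, at 5.19 and 2.67 FPKM.

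**Figure D2:**
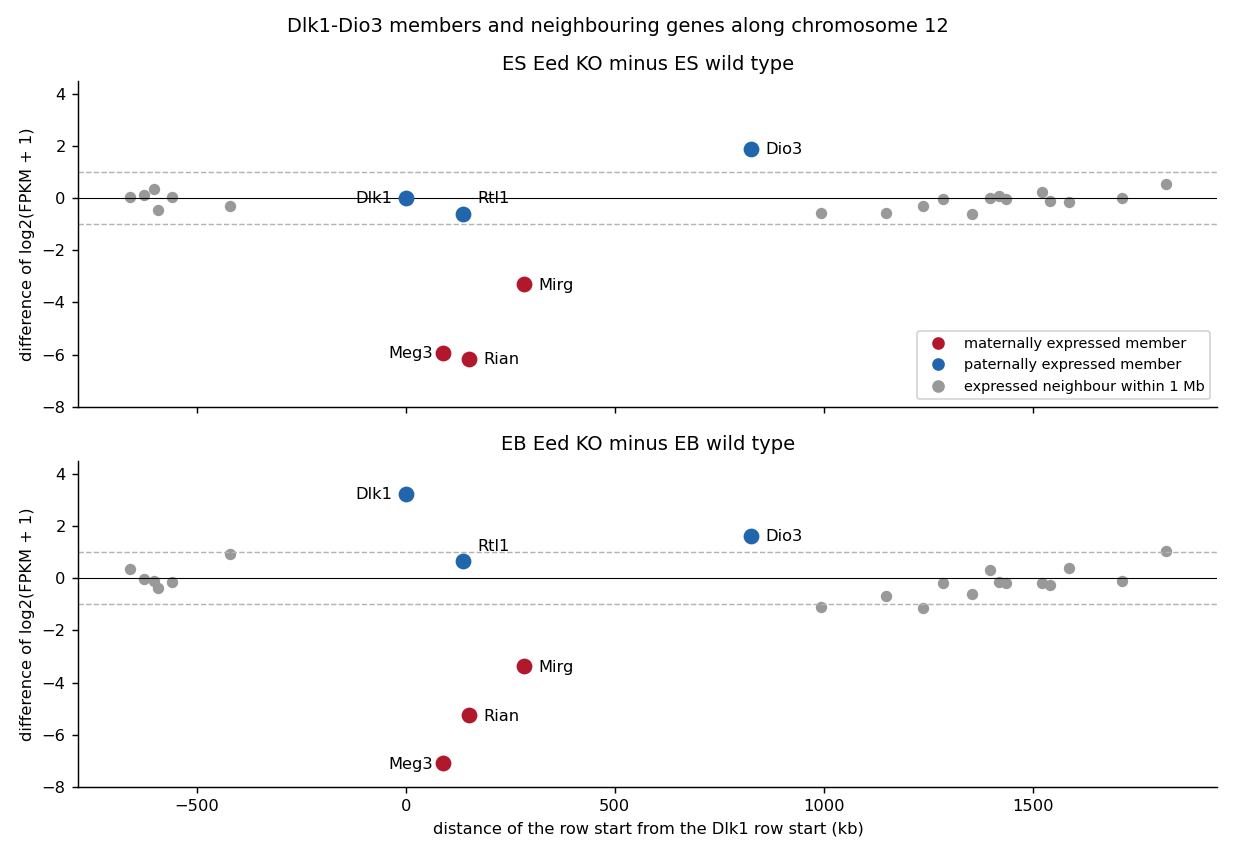
Difference of log2(FPKM + 1) (vertical axis) against distance of the row start from that of Dlk1 in kb (horizontal axis), for ES Eed KO minus ES wild type above and EB Eed KO minus EB wild type below. Red points are maternal RNAs, blue points coding members, grey points the 19 expressed neighbours within 1 Mb, and dashed lines the size rule. The red points lie at -3.31 or lower in both panels, while the neighbours lie between -1.15 and 1.04.

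EBs hold several cell types, and fewer cells of a type cannot be told apart from less RNA per cell. By the size rule, 7.68% of all genes were higher and 9.82% lower in EBs. In ES cells the shares were 2.82% and 3.01%. Stromal markers were higher in EB Eed KO: all 5 fibroblast markers (Col1a1, Col1a2, Postn, Thy1 and Dcn) were at 1 FPKM or more in both EB libraries, their sum was 1275 FPKM in EB Eed KO and 452 in EB wild type, and 4 of 5 were higher by the size rule. Of 5 mesoderm and heart markers 4 were higher (sums of 107 and 3.54 FPKM in EB Eed KO and EB wild type), as were 3 of 3 expressed endoderm markers (81.1 and 23.0) and 2 of 4 expressed trophoblast markers (158 and 59.2). All 5 neuron markers were lower, with sums of 5.61 and 444 FPKM. Their part in the Dlk1, Meg3 and Rian values was not tested. In the ES libraries the fibroblast sum was 14.4 FPKM in ES Eed KO and 30.3 in ES wild type, the neuron sum 157 and 194, the endoderm sum 4.93 and 1.47, and the trophoblast sum 123 and 196. The mesoderm and heart sum was 43.7 FPKM in ES Eed KO and 9.51 in ES wild type, with 3 of 5 markers higher, and its part in the ES values was not tested either.

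Set against each other within a library, the maternal RNAs made up 10.9% of the summed main-transcript FPKM of the 6 genes in ES Eed KO and 98.6% in ES wild type. In EBs their share was 0.944% in EB Eed KO and 88.2% in EB wild type. It was 98.3% in shSetd2 and 98.0% in shCtrl. The paternal sum, mostly Dlk1 in EBs and mostly Dio3 in ES Eed KO, was 7.36 FPKM in ES Eed KO and 2.83 in ES wild type, and 569 in EB Eed KO and 60.6 in EB wild type.

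Dlk1 was higher in EBs than in ES cells under both labels. Dlk1 had 58.9 FPKM in EB wild type and 1.41 in ES wild type, a difference of 4.63, and 563 in EB Eed KO and 1.44 in ES Eed KO, a difference of 7.85 that ranked 5 from the highest. Meg3 had 244 FPKM in EB wild type and 87.2 in ES wild type (1.48), and 0.801 in EB Eed KO and 0.447 in ES Eed KO (0.32). Rian had 191 FPKM in EB wild type and 96.2 in ES wild type (0.98). It had 4.02 in EB Eed KO and 0.351 in ES Eed KO (1.89), a ratio of 11.4 at levels well under either wild-type library. Between wild-type libraries 2 of 6 genes were higher, Dlk1 and Meg3, and 0 lower, where 33.5% of all genes passed the size rule and 19.3% were higher. Between libraries labelled Eed KO 3 of 6 were higher and 0 lower, where 38.3% passed it and 19.7% were higher. Rtl1 was the third of these (1.51), and with a pseudocount of 5 only Dlk1 stayed past the size rule.

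The Eed difference in EBs less that in ES cells was 3.22 for Dlk1, 1.25 for Rtl1, 0.91 for Rian, -0.06 for Mirg, -0.26 for Dio3 and -1.16 for Meg3. The median over all genes was -0.11, and 1349 genes were at 1 or above and 1493 at -1 or below. The Rian and Mirg values change sign with the pseudocount: at 0.1 they were 2.20 and 1.15, and at 5 they were -0.20 and -0.33. The Rtl1 value was 3.32 at a pseudocount of 0.1 and 0.39 at 5. The Dlk1 value stayed between 3.15 and 3.34 under the pseudocounts, rescalings and summing of transcripts tried.

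**Figure D3:**
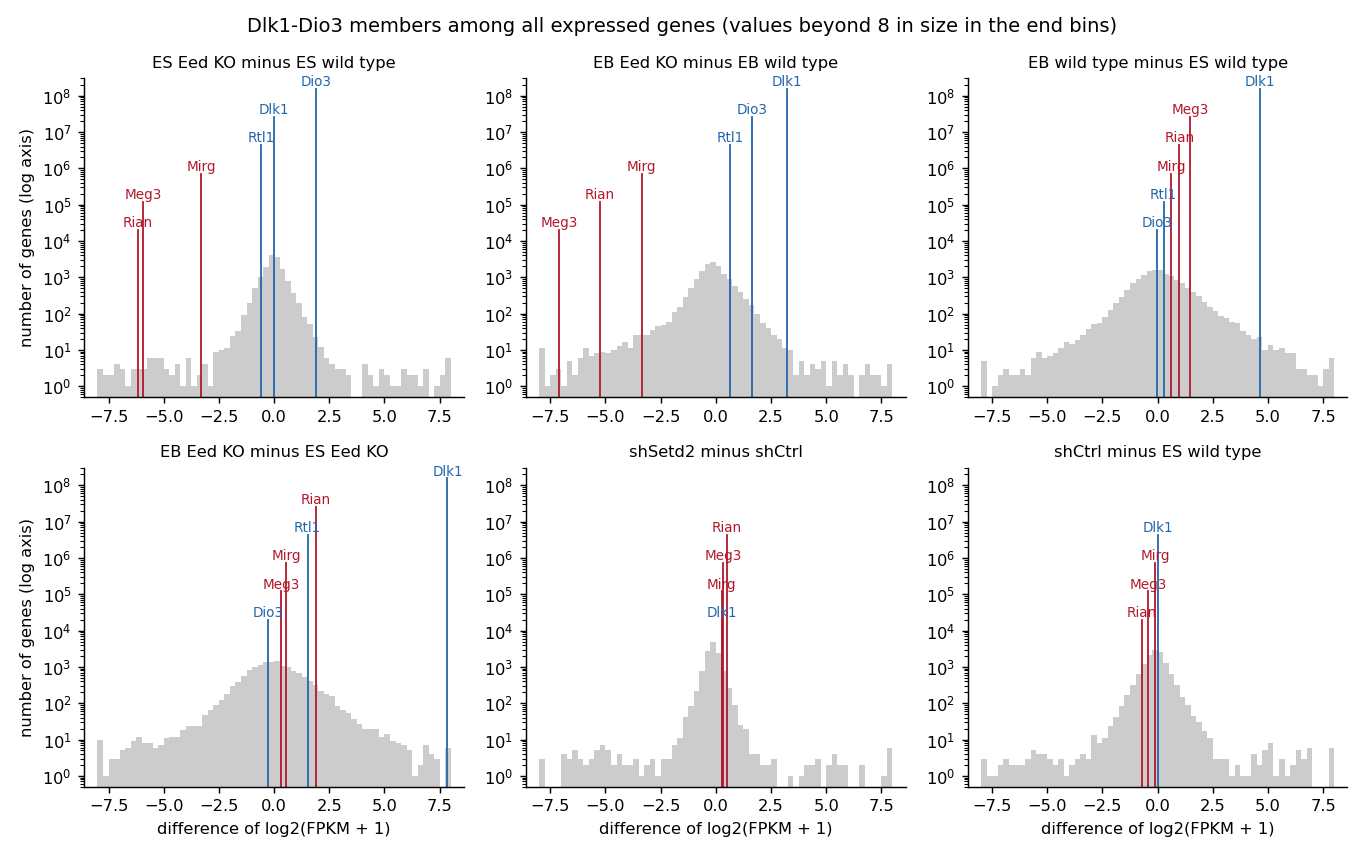
Number of genes (vertical log axis) by difference of log2(FPKM + 1) (horizontal axis) for each comparison, with grey bars for all expressed genes and lines for the members, red maternal and blue paternal. Line height carries no value. In both Eed comparisons the red lines lie in the low tail, and in the E14 comparisons the 4 expressed members lie between -0.71 and 0.51.

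In the Setd2 knockdown 4 of the 6 members were expressed and 2, Rtl1 and Dio3, were not assessed. The 4 expressed members had differences of 0.33 (Meg3), 0.51 (Rian), 0.26 (Mirg) and 0.26 (Dlk1), with 0 of 4 called, where 2.41% of 12317 genes passed the size rule, 0.706% higher and 1.7% lower, so a count of 0 is near the share over all genes. All genes had a median of -0.13, and the 4 genes lay above it. Counted from the highest difference of the 12317 genes, Rian ranked 421, Meg3 833, Mirg 1131 and Dlk1 1144. These ranks rest on 1 library a group and were not tested. Rtl1 (0.502 FPKM in shSetd2 and 0.363 in shCtrl) and Dio3 (0.730 and 0.918) were under 1 FPKM in both. The E14 shCtrl library was also set against the E36 ES wild-type library, both without an Eed mutation by label. Line, hairpin vector and puromycin selection differ together there and cannot be told apart. Meg3 was at -0.42, Rian at -0.71, Mirg at -0.10 and Dlk1 at 0.01, again 0 of 4, where 8.79% of 12747 genes passed, 3.14% higher and 5.65% lower.

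Transcripts of 1 gene were quantified apart. Meg3 has 3 rows: NR_027651 was listed at 0 in all 6 libraries, and NR_003633 had 0.0760 FPKM in ES Eed KO, 11.3 in ES wild type, 0.137 in EB Eed KO and 47.1 in EB wild type. The main row held between 83.9% and 90.3% of the Meg3 sum in every library, so its share differed little while the sum went down to 0.523 FPKM in ES Eed KO, against 98.5 in ES wild type. A further row at the span of Meg3, NR_046475, matched no symbol and was listed at 0 in ES Eed KO, with 14.1 FPKM in ES wild type, 0.0968 in EB Eed KO and 47.8 in EB wild type.

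Dlk1 has 5 rows, and the main one, NM_010052, held 79.2% to 87.1% of the sum. All 5 were above 0 in both EB libraries. In EB Eed KO and EB wild type, NM_001190705 had 32.0 and 2.37 FPKM, NM_001190704 21.9 and 1.70, and NM_001190703 11.3 and 1.03. The non-coding row NR_033813 had 30.7 and 6.14 FPKM. The 5 differences lay between 2.15 and 3.29, so every Dlk1 transcript was higher by the size rule in EB Eed KO. The sum was 659 FPKM in EB Eed KO and 70.1 in EB wild type.

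**Figure D4:**
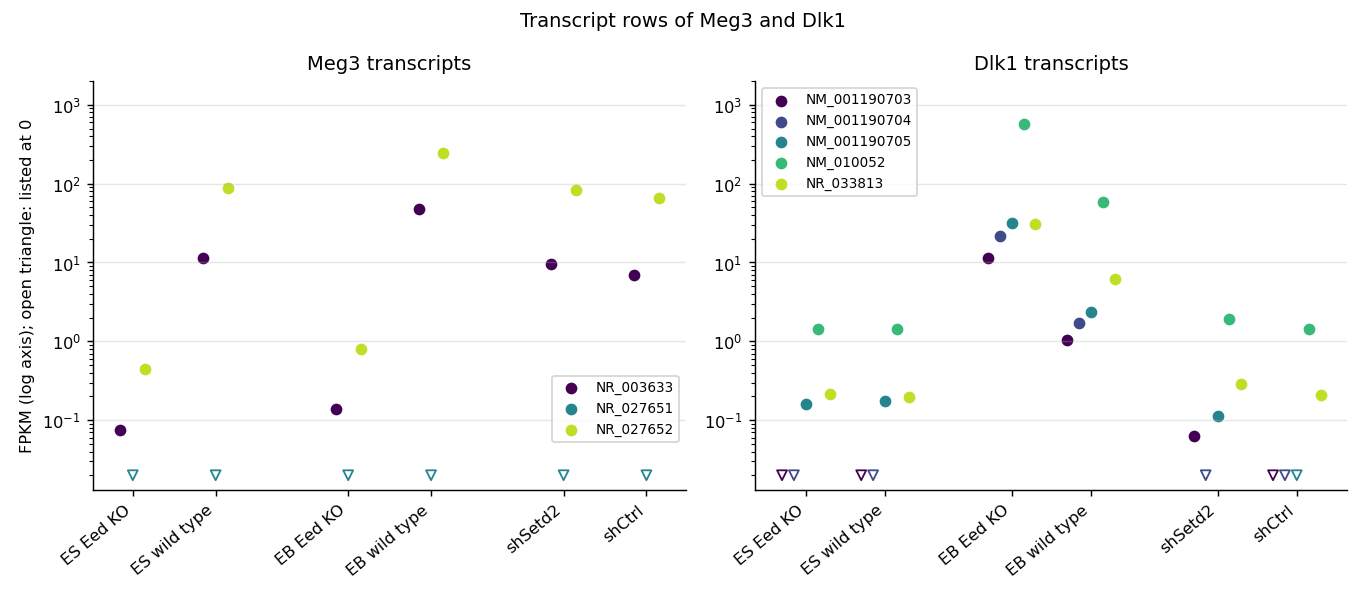
FPKM (vertical log axis) of each transcript row of Meg3 and of Dlk1 in the 6 libraries, with colour for the row and open triangles at the bottom for rows listed at 0. Both Meg3 rows with values are under 1 FPKM in the libraries labelled Eed KO, and all 5 Dlk1 rows are higher in EB Eed KO than in EB wild type.

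Inside the region the table has 68 further rows, of which 57 are microRNA genes and 7 are loci named by a sequence accession at the span of Rian. RefSeq gave 107 mature sequences for these 57 genes, with 98 distinct seeds (bases 2 to 8, which pair with targets), so most do not share a seed. The sequences below are those of Mir3072, the only microRNA gene with a value above 0 in as many as 4 libraries, and 3 of the 9 pairs of mature sequences with a shared seed. Capitals mark the seed.
mmu-miR-3072-5p: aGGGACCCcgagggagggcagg
mmu-miR-3072-3p: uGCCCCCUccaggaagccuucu
mmu-miR-379-5p: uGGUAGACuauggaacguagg
mmu-miR-1193-5p: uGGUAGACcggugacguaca
mmu-miR-379-3p: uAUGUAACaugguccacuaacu
mmu-miR-411-3p: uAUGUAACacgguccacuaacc
mmu-miR-376c-5p: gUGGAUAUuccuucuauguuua
mmu-miR-376b-5p: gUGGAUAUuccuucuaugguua

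miR-379-5p shares its seed with miR-1193-5p, miR-379-3p with miR-411-3p, and miR-376c-5p with miR-376b-5p. The genes Mir379, Mir411, Mir376c and Mir376b were listed at 0 in every library, and Mir1193 was above 0 in 2. Of the 57 microRNA rows, 0 had a value above 0 in ES Eed KO and 8 in ES wild type. In EBs 3 were above 0 in EB Eed KO and 10 in EB wild type, and in E14 cells 3 in shSetd2 and 4 in shCtrl. Mir3072, at the span of Mirg, had 46.3 FPKM in EB Eed KO and 345 in EB wild type, and in ES cells it was at 0 in ES Eed KO and at 209 in ES wild type. Of the 7 accession-named loci, 0 were above 0 in either library labelled Eed KO, 5 in ES wild type, 6 in EB wild type, 3 in shSetd2 and 2 in shCtrl. These rows are very short and a library of long poly(A) RNA does not measure mature microRNAs. The lowest of the 28 microRNA values above 0 was 6.67 FPKM and their median 25.0, so a value may stand for a few fragments of the host RNA.

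Of 23 genes that start within 1 Mb of it, 19 were expressed in E36 cells. In ES cells 0 of 19 passed the size rule, where 5.84% of all genes did, and their differences lay between -0.61 and 0.56 (median -0.02). In EBs 1 was higher and 2 lower (median -0.16), where 17.5% of all genes passed, so both counts are near the share over all genes. The 3 were Amn, a membrane protein gene with 1.37 FPKM in EB Eed KO and 0.152 in EB wild type, the heat shock protein gene Hsp90aa1 (146 and 324), and Ppp2r5c, a phosphatase subunit gene (7.94 and 18.2). Begain, the neighbour before Dlk1, had 10.6 FPKM in EB Eed KO and 5.00 in EB wild type, a difference of 0.95, and was singled out after its values were seen.

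Imprinted genes elsewhere in the genome did not share one direction. Parental classes are those on record, and use of 1 copy in these cells was not measured. For ES Eed KO against ES wild type, the size rule called 2.82% of all expressed genes higher, with 3.01% lower. For EB Eed KO against EB wild type, the shares were 7.68% higher, with 9.82% lower. The counts below were not tested against these shares, and each rests on 1 library a group. Of 24 other maternally expressed genes listed, 21 were expressed. In ES cells 0 of them were higher, and Cd81 and Slc22a18 were lower (median -0.01). In EBs 7 of them were higher and Kcnk9 was lower (median 0.75). Igf2r, the receptor that clears IGF2, had 157 FPKM in EB Eed KO and 18.8 in EB wild type, and overlaps the antisense RNA Airn (24.3 and 7.74), from which unstranded reads are not separable. Phlda2, a growth-limiting placental gene, had 26.3 and 2.83 FPKM, Asb4 23.0 and 2.08, and Klf14 6.35 and 0.0228. One of these 24 genes, Dcn, is also a fibroblast marker. Of 26 other paternally expressed genes, 24 were expressed, with Igf2 and Sfmbt2 higher and Nnat and Impact lower in ES cells (median -0.17) and 4 higher and 7 lower in EBs (median -0.27). Nnat had 0.771 FPKM in ES Eed KO against 30.4 in ES wild type, and 0.557 in EB Eed KO against 167 in EB wild type, lower in both comparisons as the maternal RNAs of chromosome 12 were. The growth factor gene Igf2 had 25.9 FPKM in ES Eed KO and 10.8 in ES wild type, and 1003 in EB Eed KO and 127 in EB wild type. Peg13 was listed at 0 in EB Eed KO with 3.17 in EB wild type, and Impact had 8.14 and 35.3.

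**Figure D5:**
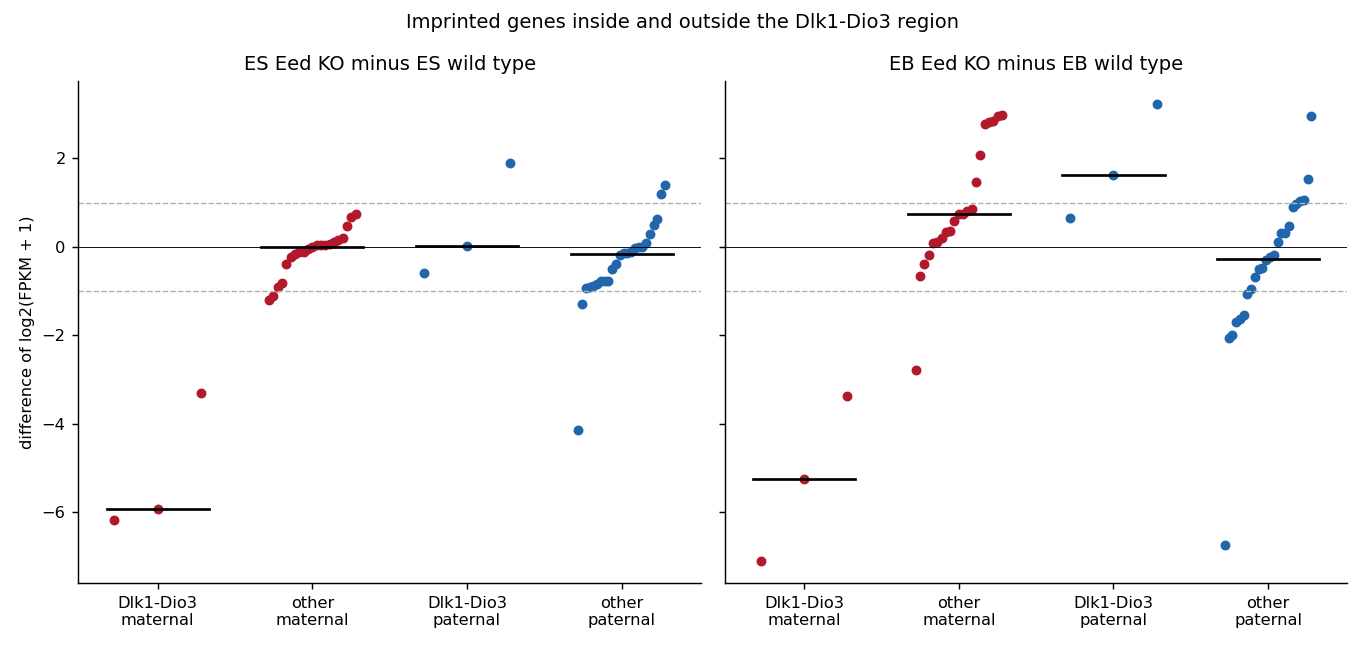
Difference of log2(FPKM + 1) (vertical axis) of the members and of the expressed imprinted genes outside the region, by the parental copy on record. Use of that copy in these cells was not measured. Each point is 1 gene, black bars are medians and dashed lines the size rule. The 3 maternal members lie at -3.31 or below, under all other maternally expressed genes in both panels, and 1 paternally expressed gene, Nnat, lies as low.

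Genes that act on imprints or around the members were counted by lists. Over all genes 5.84% passed the size rule in ES cells (2.82% higher, 3.01% lower). In EBs 17.5% did (7.68% higher, 9.82% lower). No count of these short lists was tested against those shares. Of 13 expressed imprint and DNA methylation regulators, 2 were higher and 0 lower in ES cells (median 0.14), and 0 higher and 3 lower in EBs (median -0.48). Dnmt3l, a cofactor of the de novo methyltransferases, had 367 FPKM in ES Eed KO against 155 in ES wild type, and 0.372 in EB Eed KO against 6.51 in EB wild type. Dppa3, which protects methylation in the early embryo, had 90.6 and 36.6 FPKM in the ES libraries, and 0.0625 and 4.12 in the EB libraries, in the same order. The imprint-maintaining zinc finger gene Zfp57 had 49.2 FPKM in ES Eed KO and 54.2 in ES wild type, and was the third regulator lower in EBs, with 6.43 FPKM in EB Eed KO and 13.98 in EB wild type. Dnmt3b had 36.04 FPKM in ES Eed KO and 72.5 in ES wild type, a difference of -0.99.

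The same shares over all genes, 5.84% past the size rule in ES cells and 17.5% in EBs, stand beside the counts of the next lists. Of 14 expressed Notch pathway genes, Jag2 alone passed the size rule in ES cells, where it was lower (median of the list -0.06). In EBs Notch2 was higher and 5 were lower (median -0.31), Rbpj among them. The ligand genes Dll1 (0.308 FPKM in EB Eed KO and 11.8 in EB wild type) and Dll3 (0.748 and 12.3) were lower. So were the receptor gene Notch1 (4.48 and 16.6) and the target gene Hes5 (listed at 0, and 9.67). The other 8 Notch pathway genes, ligand and target genes among them, were within the size rule, some higher and some lower. Neither a link to Dlk1 nor the part of cell types was tested. Of 4 expressed thyroid hormone genes, Thrb was higher and Thra lower in EBs (median 0.20). The receptor genes Thra and Thrb had 28.5 and 1.37 FPKM in EB Eed KO against 58.0 and 0.107 in EB wild type. Of 6 expressed genes of the retrotransposon family of Rtl1, 1 was higher and 0 lower in ES cells (median -0.53), namely Ldoc1 with 5.52 and 1.32 FPKM, and in EBs Rtl8c alone passed, and was lower (median -0.59). Peg10, which is on this list and on the paternal list, had 88.4 FPKM in ES Eed KO against 152 in ES wild type, and 151 in EB Eed KO against 109 in EB wild type. Of 8 microRNA pathway genes, 0 passed the size rule in ES cells (median -0.04), and 0 were higher and 2 lower in EBs (median -0.08), Ago1 (12.1 and 38.2 FPKM) and the export gene Xpo5 (10.6 and 24.0).

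Genes with the most similar profile were sought over the 6 libraries by Euclidean distance of log2(FPKM + 1) after subtracting each gene's mean, among 11214 genes with 5 FPKM or more in some library (11215 for Rtl1, which is not among them). The 6 points share libraries with 2 Eed labels, so Pearson's r is a description. NR_046475 lies at the span of Meg3, and the accession-named loci DQ267102 and AF357426 lie at that of Rian. These rows may share reads with Meg3 or Rian, so their likeness to the members may be built in. For Meg3 the nearest were DQ267102 (r = 0.99), Rian (0.98), AF357426 (0.99) and NR_046475 (0.99), all of the region, and then Mir20a of chromosome 14 (0.96), a short row. For Rian they were Meg3, NR_046475, Mir20a, DQ267102 and Mirg (r between 0.93 and 0.99). For Mirg they were the pseudogene Pisd-ps1 (0.95), NR_046475 (0.98), Snord4a (0.88), Sesn2 (0.86) and Dcxr (0.82).

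For Dlk1 they were Tmem176b (0.99), Mir546 (0.98), Tmem176a (0.99), the extracellular matrix gene Mfap4 (0.98) and Fos (0.98). Tmem176b had 112 FPKM in EB Eed KO and 36.7 in EB wild type, and under 1 FPKM in every ES library. For Dio3 they were Tex15, a meiosis gene (0.96), Kifc3 (0.96), the apoptosis gene Pmaip1 (0.94), A2m (0.98) and Vamp8 (0.95). Tex15 had 7.04 FPKM in ES Eed KO against 1.36 in ES wild type, and 3.74 in EB Eed KO against 1.25 in EB wild type. For Rtl1, whose differences are small on this scale, they were Ndel1, Lysmd3, Fam8a1, Khk and Sidt2 (r between 0.96 and 0.98), all with far higher levels.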

How the data were processed

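The deposited table holds FPKM per RefSeq transcript that the authors made with TopHat and Cuffdiff on mm9, per the submitters' processing notes. The sources used here do not give tool versions, the annotation release or how libraries were scaled. Per the labels' protocols, libraries were made with the TruSeq RNA version 2 kit, which selects poly(A) RNA without strand.

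Accessions were matched to symbols through a RefSeq table of GRCm38.p6, used for names (29300 rows matched, and 551 kept their accession). The row with the highest mean stands for its gene. Table coordinates are mm9, written from 1, and windows and microRNA sequences are GRCm38.p6. Differences of log2(FPKM + 1) were computed with Python 3.11.15, numpy 2.4.6 and pandas 2.3.3, and the functions were tested on simulated data. Members and lists were chosen with earlier results of these data known. Named are all members, neighbours past the size rule, up to 4 genes a list by Eed difference and the 5 nearest profiles. Further list genes past the size rule, Dcn, Airn and Begain were named after their values were seen. Depth was estimated from low values: the most common worth of a fragment in olfactory receptor rows of ES wild type, and the most common ratio of low values between libraries. Pseudocounts of 0.1 and 5, no filter on low values, 3 rescalings, summed transcripts, a size rule of 2 and another control were tried. A result of the thyroid hormone list is not reported here.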

Additional observations from a re-analysis of the deposited data

Results flagged for a closer look

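Rtl1 had Eed differences of opposite sign in the 2 cell states, 0.65 in EBs and -0.60 in ES cells, which are 1.25 apart. The gap was 3.32 with a pseudocount of 0.1 and 0.39 with a pseudocount of 5. Each rests on 1 library a group and the difference was not tested. The level was 1.97 FPKM in EB Eed KO against 0.894 in EB wild type, and 0.0407 in ES Eed KO against 0.573 in ES wild type, about 320, 210, 9.8 and 120 fragments in that order if the row, which spans 5235 bases, were 1 exon. The overlapping row 6430411K18Rik had the same directions.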

How the results depend on the processing

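No paired analysis was possible because each group has 1 library. Leaving out a replicate was not possible for the same reason. Of 222 recomputed differences of members, 213 kept their side of the size rule, 5 passed it only under the alternative, 4 no longer passed it, and 0 of those past it changed sign. Of the 213, 208 kept their sign and 5 changed it: Dio3 between EB and ES wild type with upper-quartile (0.04) and equal-total rescaling (0.11), and, for shCtrl against ES wild type, Mirg with upper-quartile and median-of-ratios rescaling (0.02 under the second) and Dlk1 with summed transcripts (-0.08). The count of members past the size rule moved by over 1.5 times in 2 comparisons. Between EB and ES wild type it was 1 with a size rule of 2, against 2. Between EB Eed KO and ES Eed KO it was 1 with a pseudocount of 5 and 1 with a size rule of 2, against 3. The count over all genes moved as follows, each under a pseudocount of 0.1, a pseudocount of 5 and a size rule of 2 where it left the 1.5-fold range. For ES Eed KO against ES wild type it was 1824, 308 and 160, against 862. For shSetd2 against shCtrl it was 570, 151 and 101, against 297. For shCtrl against ES wild type it was 1877, 422 and 197, against 1120. Under a pseudocount of 5 and a size rule of 2 it was 1079 and 603 for EB Eed KO against EB wild type (2585), 2357 and 1431 for EB against ES wild type (4955), and 2880 and 1657 for EB Eed KO against ES Eed KO (5651). Rescaling moved the split of higher and lower calls. With equal totals it was 506 and 325 in ES cells (against 417 and 445), 3601 and 1438 between wild-type EBs and ES cells (against 2855 and 2100), and 3640 and 2058 between the libraries labelled Eed KO (against 2913 and 2738). With median-of-ratios rescaling it was 1355 and 1156 in EBs (against 1135 and 1450), 131 and 168 for shSetd2 (against 87 and 210) and 484 and 558 for shCtrl against ES wild type (against 400 and 720). Equal totals moved the median of all genes between wild-type EBs and ES cells to 0.26, where Rian passed the size rule at 1.27. For weak genes the pseudocount matters: the Rtl1 difference in ES cells was -0.60, and -2.26 with a pseudocount of 0.1. Its ES Eed KO level stands for about 9.8 fragments if the row were 1 exon, so depth limits that value too.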
